A study of Mus musculus with 6 samples.

Results

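The 10 genes described here encode part of the purine-sensing apparatus of macrophages. They include the ATP-gated channels P2rx4 and P2rx7, the nucleotide receptors P2ry2, P2ry6, P2ry13 and P2ry14, and the ectonucleotidase Entpd1. The others are the adenosine receptors Adora2a and Adora2b and the adenosine-degrading enzyme Ada. The 10 genes were taken by gene symbol from a deposited table of 55335 genes, in which each symbol occurs under a single identifier. All 10 were among the 13901 genes that passed the filter on low counts. The table holds read counts from mouse bone marrow-derived macrophages, which are primary cells grown with 20 ng/mL of macrophage colony-stimulating factor. On day 5 all cells received PAC-CM, a medium that pancreatic acinar cells had conditioned after injury. In 3 libraries the medium was given without and in 3 with 400 µM kinsenoside, a plant glycoside, so every value below compares macrophages that had all met the conditioned medium. Strain and age of the mice are not in the labels. Nor do these say that replicates are separate cultures or mice, so the p-values reflect the spread among libraries alone, which may be technical.

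Injured cells spill ATP and other nucleotides, which macrophages read through P2 receptors on their surface. P2X receptors are channels that ATP opens to calcium and sodium, and P2X7, which needs high ATP, is the classical trigger of potassium loss, NLRP3 inflammasome assembly and release of mature interleukin-1β. P2Y receptors couple to G proteins. Surface enzymes strip phosphates from ATP: Entpd1, known as CD39, makes AMP, from which Nt5e, known as CD73, makes adenosine, and adenosine then dampens macrophages through the cyclic AMP-raising receptors Adora2a and Adora2b until Ada converts it to inosine.

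Total counts were between 41125059 and 47461702 per library. A count of 3, the floor below which absence cannot be told from low expression, was between 0.0632 and 0.0729 CPM, the count scaled to a common library size by the total of that library. Such a floor reflects counting error alone. Macrophage markers were abundant, with Lyz2 at a mean of 12591 CPM, Adgre1 at 1467 and Csf1r at 1268, and none of the 10 tested identifiers of macrophage markers was called by edgeR. At an unadjusted p under 0.05 there were 2, against 14.9% of all tested genes. Of the 10 estimates 8 lay above 0 and 2 below, where 51.1% of all tested genes lay below 0. The 16 acinar cell markers summed to between 7.16 and 7.71 CPM in PAC-CM and between 5.54 and 8.31 CPM with kinsenoside. The largest part was Cela1, at a mean of 2.67 CPM over all libraries, from 83 to 184 counts per library (edgeR adjusted p = 0.353). Ctrb1, Cela2a and Pnlip averaged 0.950, 0.853 and 0.627 CPM, also above the floor. Of the 16 markers, 4 (Prss1, Ctrc, Amy2b and Ptf1a) were at 0 in every library. Among the lists for other cell types, the dendritic list summed to 187 to 230 CPM in PAC-CM and 157 to 236 with kinsenoside. The fibroblast and endothelial list summed to 61.6 to 80.7 and 64.1 to 111 CPM, most of it Kdr at 58.1 ± 9.46 and 67.4 ± 20.5 CPM. Sums were 31.1 to 40.0 and 33.4 to 42.9 CPM for neutrophils and 6.53 to 14.4 and 8.29 to 15.4 CPM for T, B and NK cells. Summed CPM separated the groups in the mast cell and platelet list, at 29.0 to 45.8 in PAC-CM and 47.6 to 88.3 with kinsenoside. Most of that sum was Pf4, a platelet gene that macrophages also express, at 26.4 ± 6.99 and 50.8 ± 19.3 CPM (SD, n = 3, edgeR adjusted p = 0.278). Of the other platelet genes, Ppbp was at 3.47 ± 1.58 and 5.35 ± 1.96 CPM and Itga2b at 4.53 ± 1.72 and 3.85 ± 0.889 CPM. Gp9 was at 0.245 and 0.243 CPM. Of the mast cell genes, Kit was at 0.849 ± 0.295 and 1.51 ± 0.956 CPM, Cpa3 averaged 0.00395 CPM, and Mcpt4, Tpsb2 and Ms4a2 were at 0. The part of such cells in any value below was not tested, and in bulk RNA fewer cells of a type cannot be told from less RNA per cell.

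Of the 10 genes, 6 lie in pairs near each other on a chromosome. P2rx7 and P2rx4 share a strand of chromosome 5 with 16111 bases between them (P2rx7 at 122643911 to 122691432 and P2rx4 at 122707544 to 122729738, GRCm38, GENCODE M21 gene models). P2ry6 (100937630 to 100974649) and P2ry2 (100996568 to 101012866) lie 21918 bases apart on chromosome 7, with no coding gene between them. P2ry14 (59113855 to 59153618) and P2ry13 (59207892 to 59210882) lie on the minus strand of chromosome 3, with 54273 bases and 1 coding gene between them. P2ry12 follows P2ry13 after 5389 bases. Entpd1 is on chromosome 19, Adora2a on chromosome 10, Adora2b on chromosome 11 and Ada on chromosome 2. Other gene models overlapped 5 of the 10 genes, but the exons of only 1: the microRNA Mir8115 lies within an exon of P2rx7 and was listed with 1 count in every library.

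Promoters of 8 of the 10 genes had an entry in the RefSeq table (GRCm38.p6); P2ry6 and Adora2a had none. The 250 bases before the first RefSeq start listed are printed for P2rx7 with P2rx4 and for P2ry14 with P2ry13. They were chosen because the genes of each pair share a strand and differed in level or in steadiness, as given below. For P2rx7 and P2ry14 that start lies inside the gene model given above, so the stretch reaches into the model. The table lists 2 starts for P2rx7 and 4 for P2ry14. Each stretch reads 5′ to 3′ on the strand of its gene, with CpG dinucleotides in capitals.

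P2rx7, chr5:122643677-122643926, plus strand: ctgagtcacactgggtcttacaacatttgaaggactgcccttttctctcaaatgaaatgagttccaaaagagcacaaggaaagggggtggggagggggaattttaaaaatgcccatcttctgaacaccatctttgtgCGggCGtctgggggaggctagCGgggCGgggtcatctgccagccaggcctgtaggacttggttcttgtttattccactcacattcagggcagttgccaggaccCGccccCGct
P2rx4, chr5:122707294-122707543, plus strand: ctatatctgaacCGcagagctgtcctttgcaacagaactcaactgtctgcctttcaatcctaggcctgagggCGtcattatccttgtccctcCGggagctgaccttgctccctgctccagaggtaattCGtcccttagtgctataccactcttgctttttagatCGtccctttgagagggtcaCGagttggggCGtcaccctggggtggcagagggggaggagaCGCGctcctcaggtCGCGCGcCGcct
P2ry14, chr3:59153493-59153742, minus strand: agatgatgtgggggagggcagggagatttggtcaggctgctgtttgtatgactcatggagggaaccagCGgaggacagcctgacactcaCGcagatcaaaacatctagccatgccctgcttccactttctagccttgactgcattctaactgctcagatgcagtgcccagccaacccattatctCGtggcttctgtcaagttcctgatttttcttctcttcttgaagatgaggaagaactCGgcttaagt
P2ry13, chr3:59210883-59211132, minus strand: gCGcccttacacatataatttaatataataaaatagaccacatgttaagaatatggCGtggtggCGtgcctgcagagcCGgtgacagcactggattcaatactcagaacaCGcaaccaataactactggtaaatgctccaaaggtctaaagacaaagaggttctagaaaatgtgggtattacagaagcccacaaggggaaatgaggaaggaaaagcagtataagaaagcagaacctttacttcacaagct

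The P2rx4 stretch holds 13 CpG dinucleotides, against 6 in that of P2rx7, 4 in that of P2ry14 and 5 in that of P2ry13. The median over all 32851 promoter entries, cut to the same length, is 6. A GC box (GGGCGG, either strand) occurs at 2 places in the P2rx7 stretch and at none in the others printed, and in 32.7% of all entries. The ETS core GAGGAA, the kind of site bound by the macrophage factor PU.1, occurs at 1 place each in the P2ry14 and P2ry13 stretches and not in those of P2rx7 and P2rx4, against 23.3% of all entries. An AP-1 site (TGANTCA, either strand) occurs at 1 place each in the P2rx7 and P2ry14 stretches and in 6.75% of all entries. The second P2rx7 entry, with 4 CpG dinucleotides, holds neither a GC box nor an AP-1 site. Of the other P2ry14 entries all hold GAGGAA, the second also holds an AP-1 site and the fourth a TATA box (TATAAA, either strand). Each match describes the sequence only.

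Levels per length spanned a wide range. Scaled by the length of all annotated exons (CPM per kilobase, mean ± SD over all 6 libraries), Adora2b stood at 57.3 ± 8.19, P2rx4 at 43.9 ± 1.47, P2ry6 at 40.9 ± 8.56 and Entpd1 at 31.3 ± 2.19. The ranges of neighbours in this upper group overlapped over the 6 libraries. Within libraries, Adora2b lay above P2rx4 in 6 of 6, P2rx4 above P2ry6 in 4 of 6 and P2ry6 above Entpd1 in 5 of 6. P2rx7 followed at 11.5 ± 2.31, below Entpd1 in all 6 libraries without overlap. Adora2a at 5.34 ± 1.58, P2ry2 at 4.61 ± 0.953 and P2ry14 at 2.76 ± 1.49 formed a lower group in which neighbours had overlapping ranges, although P2ry2 lay above P2ry14 in 6 of 6 libraries. P2ry13, at 1.62 ± 0.420, overlapped P2ry14, and Ada was lowest at 0.617 ± 0.132, with no overlap with P2ry13. The length used matters for some of them. P2ry14 has 11059 bases of annotated exon but a longest coding transcript of 2476 bases, and per kilobase of that transcript it stood at 12.3 ± 6.65, next to P2rx7 at 13.9 ± 2.79. On that scale P2rx4 led alone at 114 ± 3.81, with P2ry6 at 60.7 ± 12.7 and Adora2b at 57.3 ± 8.19 behind it. On both scales Entpd1 lay above P2rx7, and P2ry13 and Ada were the lowest.

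**Figure D1:**
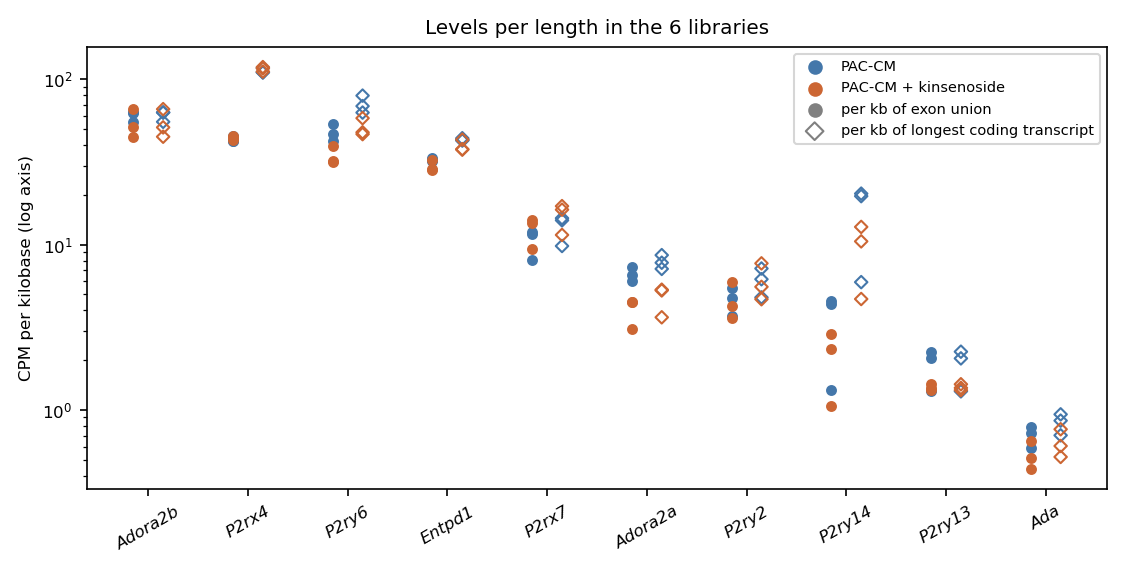
Level of each gene in CPM per kilobase on a log axis, for the 6 libraries, scaled by all annotated exons (circles) or by the longest coding transcript (diamonds), coloured by group. Adora2b, P2rx4, P2ry6 and Entpd1 lie above the other genes on both scales, and P2ry14 moves most with the length chosen, from a mean of 2.76 to one of 12.3.

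None of the 10 genes passed the quasi-likelihood test of edgeR after adjustment by Benjamini and Hochberg over all 13901 genes, in which 0.511% of genes were called at an adjusted p under 0.05. At an unadjusted p under 0.05 there were 2 of the 10, Adora2a and P2ry6, against 14.9% of all tested genes. The same 2 had all 3 kinsenoside libraries below all 3 PAC-CM libraries in CPM, which held for 15.7% of all tested genes, so the counts of 2 in 10 are near the background. DESeq2 called Adora2a and P2ry6, where it called 3.52% of all genes, and limma-voom called none of the 10. Of the 10 estimates 7 lay below 0, with a median log2 fold change (kinsenoside over PAC-CM) of -0.24, while 51.1% of all tested genes lay below 0 with a median of -0.01. The 10 genes together made up between 846 and 900 CPM in PAC-CM and between 794 and 834 CPM with kinsenoside. These sums are scaled by library totals alone. The TMM factors of the fit were 1.013 to 1.019 in PAC-CM and 0.979 to 0.990 with kinsenoside. Those factors, which the sums leave out, bring the groups closer, so the gap is not read as a fall.

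**Figure D2:**
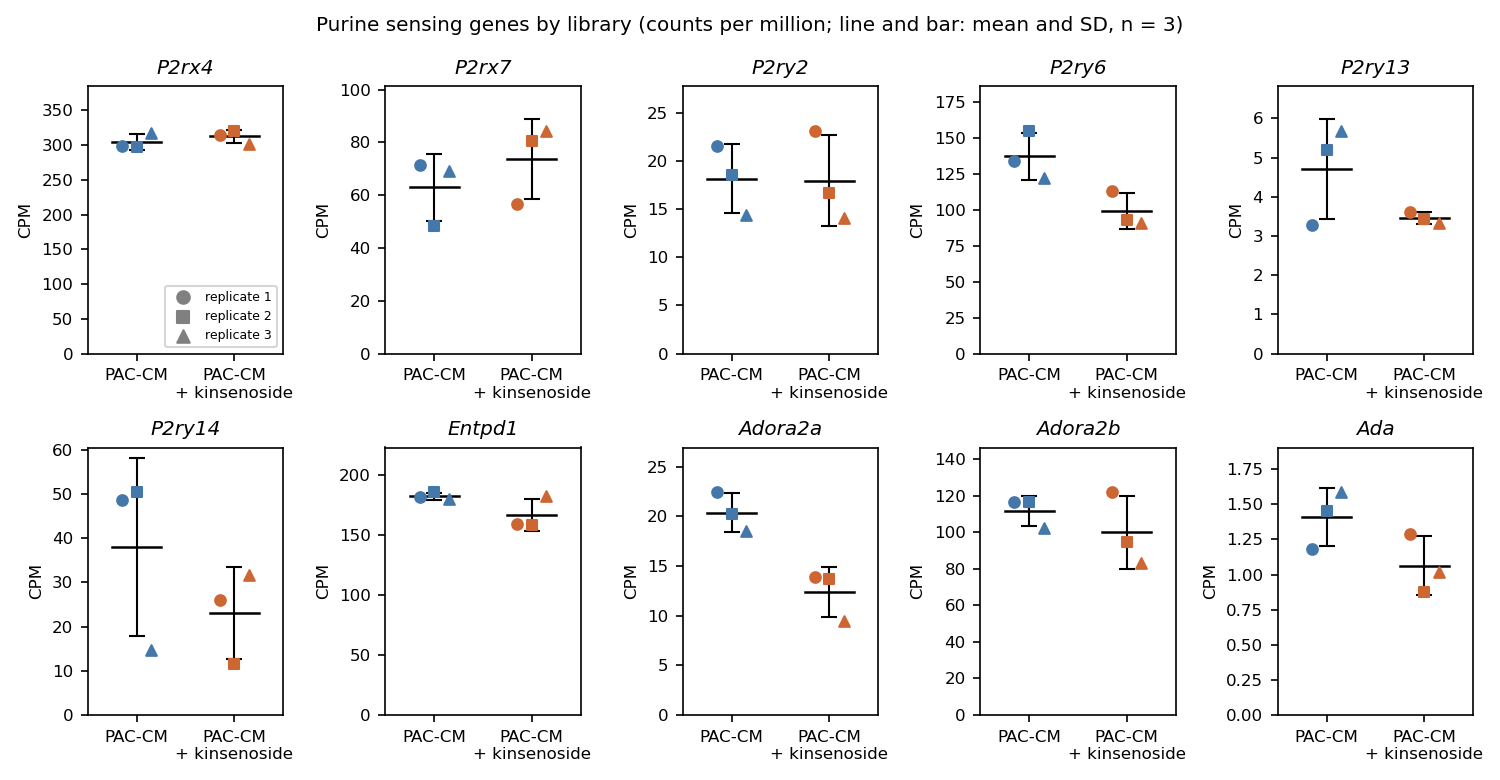
CPM of each gene in every library on linear axes from 0, with marker shapes for replicates 1 to 3 and the mean and SD of each group (n = 3). Adora2a and P2ry6 are the genes whose groups are apart, and P2ry14 spreads from 11.6 to 50.4 CPM without following the groups.

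The P2X channels gave the steadiest and one of the more variable records. P2rx4, a channel that also cycles through lysosomes, was at 299, 298 and 317 CPM in PAC-CM replicates 1 to 3 and at 315, 321 and 301 CPM with kinsenoside. The groups overlapped, and the fold change was 1.06 (edgeR adjusted p = 0.576), with an unadjusted 95% interval of -0.05 to 0.22 on the log2 scale. Its spread within groups was among the smallest of all tested genes, at the 4.58th percentile of the pooled SD of log2 CPM. P2rx7 was at 71.4, 48.5 and 69.3 CPM in PAC-CM and at 56.5, 80.4 and 84.4 CPM with kinsenoside. PAC-CM replicate 2 and kinsenoside replicate 1 were the low libraries of their groups, and the groups overlapped. The log2 fold change of P2rx7 was 0.27 (SE 0.206, adjusted p = 0.604), with a 95% interval of 0.854 to 1.71 for the fold. The estimate ranged from 0.12 without PAC-CM replicate 2 to 0.43 without kinsenoside replicate 1. Within a library, P2rx7 counts were between 0.163 and 0.239 of P2rx4 counts in PAC-CM and between 0.179 and 0.280 with kinsenoside, so these neighbours did not keep a fixed ratio among libraries of the same group.

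Of the P2Y receptors that sense pyrimidine nucleotides, P2ry6 had lower values in every kinsenoside library without passing the adjusted test, and P2ry2 had nearly equal values in both groups. P2ry6, the UDP receptor that drives phagocytosis in microglia, was at 134, 155 and 123 CPM in PAC-CM and at 113, 93.1 and 90.8 CPM with kinsenoside. All kinsenoside libraries lay below all PAC-CM libraries. The log2 fold change was -0.43 (SE 0.114), a fold of 0.744 (95% interval 0.621 to 0.892). In edgeR the adjusted p was 0.147. DESeq2 gave P2ry6 an adjusted p of 0.0339, and over 15 alternative settings it ranged from there to 0.378 with the estimate between -0.53 and -0.32. P2ry2, a receptor for ATP and UTP through which macrophages sense nucleotides from dying cells, was at 21.6, 18.6 and 14.4 CPM in PAC-CM and at 23.2, 16.7 and 14.1 CPM with kinsenoside. These values nearly coincide between groups, with a log2 fold change of 0.03 (95% interval -0.48 to 0.54, adjusted p = 0.974) whose sign turned under library-total scaling and without PAC-CM replicate 3 or kinsenoside replicate 1. The ratio of P2ry6 to P2ry2 counts within a library was 6.21, 8.35 and 8.49 in PAC-CM and 4.89, 5.57 and 6.45 with kinsenoside, which overlapped between groups.

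The receptors of the chromosome 3 cluster did not separate the groups. P2ry14, which senses UDP-glucose and related sugars, was at 48.7 and 50.4 CPM in PAC-CM replicates 1 and 2 but at 14.7 in replicate 3, and at 25.9, 11.6 and 31.7 CPM with kinsenoside. The low PAC-CM library lay within the kinsenoside range. Its within-group spread was at the 97.6th percentile of tested genes, and the log2 fold change of -0.67 (SE 0.634, adjusted p = 0.696) had a 95% interval from -2.34 to 1.00. The estimate moved between -0.35 without kinsenoside replicate 2 and -1.05 without PAC-CM replicate 3, so no direction can be read from it. P2ry13, a receptor for ADP, was at 3.27, 5.18 and 5.69 CPM in PAC-CM and at 3.61, 3.44 and 3.33 CPM with kinsenoside. The kinsenoside libraries were tightly grouped at the level of PAC-CM replicate 1, and the log2 fold change was -0.40 (SE 0.208, adjusted p = 0.411). It was -0.24 without PAC-CM replicate 3 and -0.61 without PAC-CM replicate 1. P2ry12, the platelet and microglial ADP receptor beside it, had the same order among PAC-CM libraries, at 1.56, 2.36 and 3.06 CPM, and 1.80, 1.85 and 1.46 CPM with kinsenoside. P2ry14 had its lowest PAC-CM value in replicate 3, where P2ry13 and P2ry12 had their highest, and P2ry14 counts were between 2.58 and 14.9 times those of P2ry13 in PAC-CM alone.

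Entpd1, the enzyme that hydrolyses ATP and ADP at the cell surface, was at 182, 186 and 180 CPM in PAC-CM and at 160, 159 and 182 CPM with kinsenoside. Kinsenoside replicate 3 lay within the PAC-CM range, and the fold change was 0.943 (95% interval 0.840 to 1.06, adjusted p = 0.647). The log2 fold change of Entpd1, -0.08, was -0.04 without kinsenoside replicate 2, -0.05 without kinsenoside replicate 1 and -0.16 without kinsenoside replicate 3. Nt5e, which completes the path from AMP to adenosine and is named here after its values were seen, was between 0.735 and 2.23 CPM over the 6 libraries, with a fold of 0.906 (95% interval 0.494 to 1.66, adjusted p = 0.907).

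Among the adenosine receptors, Adora2a had lower values in every kinsenoside library, again without passing the adjusted test, while Adora2b overlapped between groups. Adora2a was at 22.4, 20.2 and 18.5 CPM in PAC-CM and at 13.9, 13.7 and 9.43 CPM with kinsenoside. Every kinsenoside library lay below every PAC-CM library. The log2 fold change was -0.68 (SE 0.152), a fold of 0.624 (95% interval 0.491 to 0.794). In edgeR the adjusted p was 0.101, and Adora2a ranked 248th among the tested genes by p. DESeq2 gave an adjusted p of 0.00392, and over the 15 alternatives it ranged up to 0.309 with the estimate between -0.77 and -0.52. Adora2b, the more abundant and lower-affinity receptor, was at 116, 116 and 102 CPM in PAC-CM and at 122, 94.6 and 83.0 CPM with kinsenoside. Kinsenoside replicate 1 was the highest of all 6 libraries, and the fold change was 0.922 (95% interval 0.740 to 1.15, adjusted p = 0.745). Without that library the log2 fold change of Adora2b was -0.29, and without kinsenoside replicate 3 it was 0.00 after rounding, still below 0.

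Within each library the ratio of counts of these 2 genes needs no scaling by library size. It is a ratio of RNA counts, not corrected for gene length, and it holds the same Adora2a counts as above. Adora2a counts were 0.193, 0.174 and 0.181 of Adora2b counts in PAC-CM and 0.114, 0.145 and 0.114 with kinsenoside, or 0.182 ± 0.00961 against 0.124 ± 0.0182 (SD, n = 3). The groups did not overlap. This ratio was chosen after its values were seen and was given no test. Ada was at 1.18, 1.45 and 1.59 CPM in PAC-CM and at 1.29, 0.877 and 1.02 CPM with kinsenoside, from counts between 37 and 70 per library. Its groups overlapped, and the log2 fold change was -0.36 (95% interval -0.92 to 0.20, adjusted p = 0.542). The estimate for Ada was between -0.52 without kinsenoside replicate 1 and -0.24 without kinsenoside replicate 2.

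**Figure D3:**
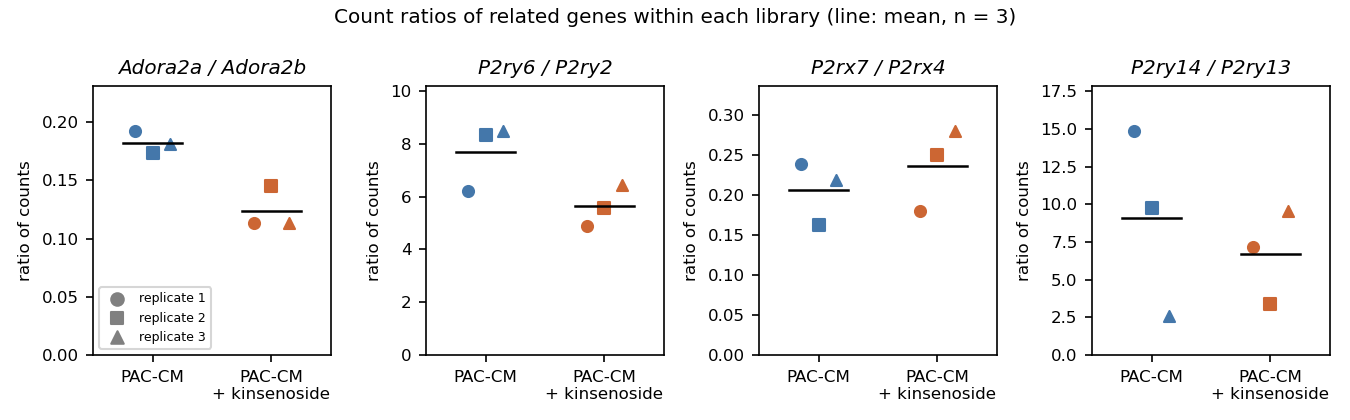
Ratio of the counts of related genes within each library on linear axes from 0, with marker shapes for replicates and lines for group means (n = 3). Only the ratio of Adora2a to Adora2b is apart between groups among these 4, at 0.174 to 0.193 against 0.114 to 0.145.

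**Figure D4:**
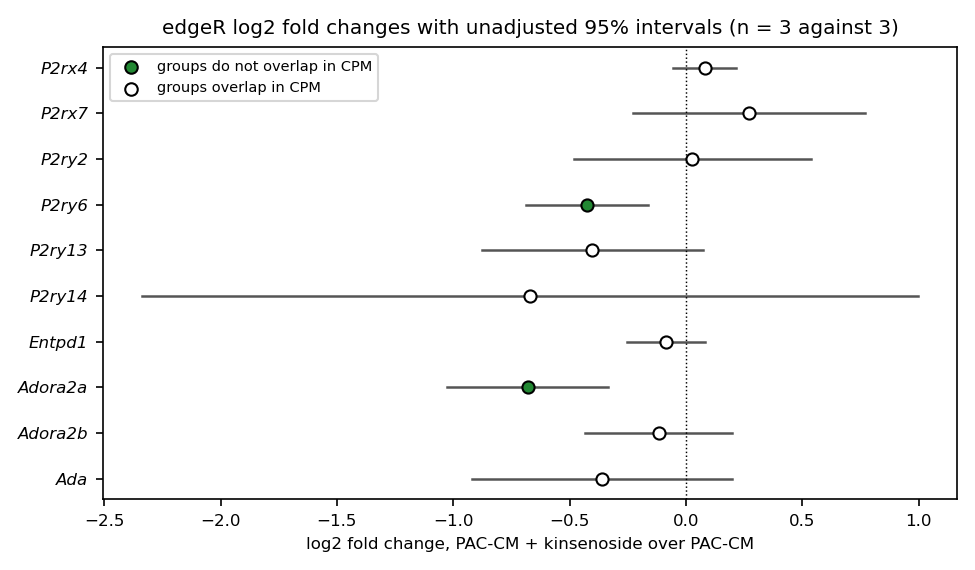
Log2 fold change of each gene from edgeR with its unadjusted 95% interval (3 against 3 libraries), filled where the groups do not overlap in CPM. The intervals of Adora2a and P2ry6 lie below 0, that of P2rx4 is the narrowest (-0.05 to 0.22) and that of P2ry14 the widest (-2.34 to 1.00).

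The member with the smallest p was Adora2a, and the genes of most similar profile, by root mean square distance of gene-centred log2 CPM over the 6 libraries, were Lrrc1 (0.0569), Nthl1 (0.0729) and Lrrc75a (0.0779). All 3 had estimates below 0, between -0.77 and -0.58, a shared direction that follows from how they were picked. They did not pass in edgeR (adjusted p = 0.129 to 0.321). Lrrc1 and Nthl1 were sparse, at 1.14 and 1.07 CPM, and Lrrc75a was at 11.5 CPM.

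The wider pathway was read from lists of genes written from general knowledge, but with earlier results of these data known. Calls within any of these lists are therefore not independent evidence. Of 11 other P2 receptors, 10 had a row in the deposited table and P2ry10b had none. Of those 10, 3 were expressed enough to be tested and none was called. P2ry1, an ADP receptor, was between 7.10 and 9.71 CPM in PAC-CM and between 8.25 and 9.49 CPM with kinsenoside (edgeR adjusted p = 0.688). P2ry12 had an adjusted p of 0.519, and the channel gene P2rx5, at no more than 0.408 CPM in any library, had one of 0.722. Of the other adenosine receptors, Adora1 was at 0 throughout and Adora3 was at 13.5 ± 0.809 and 12.8 ± 1.86 CPM (adjusted p = 0.917). Of 13 tested ectonucleotidases and related enzymes besides Entpd1, not all of them at the cell surface, none was called. Their median log2 fold change was -0.07. The most abundant were the NAD-consuming enzymes Bst1, at 611 ± 65.4 and 752 ± 117 CPM (adjusted p = 0.257), and Cd38, at 303 ± 14.1 and 327 ± 45.6 CPM (adjusted p = 0.528). The smallest p-values belonged to Entpd4, a Golgi relative of Entpd1, with a log2 fold change of -0.33 (adjusted p = 0.149), and to Enpp1, which makes pyrophosphate and AMP from ATP, with 0.32 (adjusted p = 0.230). The farthest estimate of the list, 1.40 for Entpd3, came from a low gene at 0.433 ± 0.141 and 1.11 ± 0.678 CPM whose groups overlapped (adjusted p = 0.231), and it is named after its values were seen.

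Of 17 tested genes of adenosine uptake and purine salvage 1 was called, against 0.511% of all tested genes. This was Ampd3, an AMP deaminase that turns AMP into IMP inside the cell, and it rose. It was at 137, 134 and 146 CPM in PAC-CM and at 173, 188 and 199 CPM with kinsenoside, with no overlap. The log2 fold change was 0.47 (SE 0.0729, adjusted p = 0.0412), or 1.38-fold. The call held in 7 of 15 alternatives, where the adjusted p ranged from 3.61e-05 to 0.178. It was lost with limma-voom, with non-robust estimates and with the replicate block (adjusted p = 0.0511), and on leaving out PAC-CM replicate 1 (0.161), 2 (0.178) or 3 (0.0994) or kinsenoside replicate 2 (0.146) or 3 (0.0811). The list's median log2 fold change was 0.02, with 10 estimates above 0 and 7 below.

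None of 10 tested nucleotide release channels and transporters was called (median -0.04). Vdac1, the outer mitochondrial pore, was at 131 ± 1.94 and 133 ± 2.67 CPM (adjusted p = 0.647), and Ano6, a lipid scramblase, had an adjusted p of 0.984. The smallest p-values were those of Fam26f, now called Calhm6, at 12.1 ± 2.28 and 7.54 ± 1.90 CPM (log2 fold change -0.64, adjusted p = 0.225), and of Abcc4, a cyclic AMP exporter, at 82.4 ± 1.93 and 70.9 ± 3.53 CPM (-0.17, adjusted p = 0.280). None of 18 tested genes in a list for P2Y signalling was called either (median -0.06, 11 estimates below 0). That list held G proteins, phospholipases C, calcium release channels, arrestins and receptor kinases, and its Gnas is also in the cyclic AMP list below. The abundant G protein genes Gnai2 and Gnas had log2 fold changes of 0.06 and 0.02, with adjusted p of 0.695 and 0.932. Itpr1, a calcium release channel of the endoplasmic reticulum, had -0.50 (adjusted p = 0.0771) and Plcb3, a phospholipase C, had -0.29 (adjusted p = 0.129).

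Among 17 tested partners and effectors of P2X7, 3 fell and none rose, against 0.511% of all tested genes called (29 genes higher, 42 lower). The median log2 fold change of this list was -0.06. The list was written with earlier results of these data known, so these counts are not independent evidence of a direction. Il1b, whose product P2X7 helps release, was at 1548, 1554 and 1652 CPM in PAC-CM and at 1057, 1057 and 935 CPM with kinsenoside. Il1a, its relative, was at 1255, 1166 and 1132 CPM and at 727, 702 and 520 CPM with kinsenoside. Neither overlapped between groups, and nor did the stress kinase gene Map3k5, at 16.0 ± 1.13 and 8.87 ± 1.34 CPM (SD, n = 3). Log2 fold changes of Il1a, Il1b and Map3k5 were -0.82, -0.60 and -0.81, with adjusted p of 0.0403, 0.0152 and 0.0412 in edgeR. They passed in 9, 11 and 8 of the 15 alternatives, where adjusted p reached 0.157, 0.0824 and 0.161. Leaving out PAC-CM replicate 1, 2 or 3 or kinsenoside replicate 2 ended each of these calls, and leaving out kinsenoside replicate 3 ended that of Map3k5 (0.0735). The calls of Il1a and Map3k5 were also lost with limma-voom (0.0548 and 0.0555) and with non-robust estimates (0.0542 and 0.0587). The sensor gene Nlrp3 was at 65.0 ± 2.09 and 50.2 ± 6.76 CPM (adjusted p = 0.182) and Casp1 at 304 ± 8.15 and 295 ± 18.1 CPM (adjusted p = 0.994), both named outside the rule and after their values were seen. Of 20 tested genes of cyclic AMP signalling and response 1 was called, against 0.511% of all tested genes. This was Pde4b, which degrades cyclic AMP and which fell, and the other 19 did not pass. It was at 25.5, 29.8 and 27.7 CPM in PAC-CM and at 18.7, 17.5 and 16.9 CPM with kinsenoside, without overlap. Its log2 fold change was -0.60 (SE 0.0883) with an adjusted p of 0.0349 in edgeR. Of the 15 alternatives 7 kept this call, with adjusted p from 1.95e-05 to 0.144. It was lost under the same settings as that of Ampd3, among them the replicate block (adjusted p = 0.0748). The list's estimates were 10 above and 10 below 0, with a median of -0.01.

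**Figure D5:**
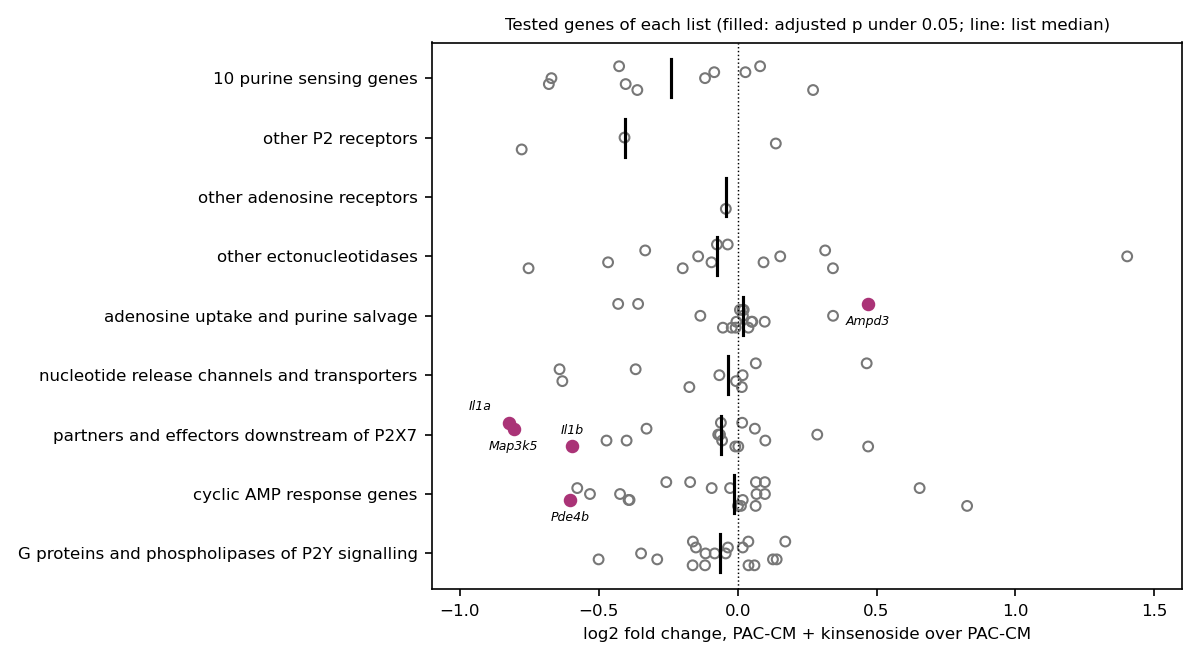
Log2 fold change (kinsenoside over PAC-CM) of every tested gene of each list, with filled points for genes with an adjusted p under 0.05 and a line at the list's median. The calls are Ampd3 above 0, at 0.47, and Il1a, Map3k5, Il1b and Pde4b below 0, between -0.82 and -0.60, with none among the purine receptors and ectonucleotidases.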

How the data were processed

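The authors deposited read counts per Ensembl gene, which were used unchanged, with 1 column per library. The build GRCm38 comes from the submitters' processing notes, which also list StringTie 1.3.1c, STAR, DESeq2 1.16.1, FastQC 0.11.2 and bcl2fastq 2.20, with no role or order. The counter, its annotation and its use of strand are not given in the sources used here, so antisense and overlapping reads cannot be told apart.

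In R 4.3.3, filterByExpr of edgeR 4.0.16 kept 13901 of 55335 genes. Robust quasi-likelihood models with TMM factors had the treatment as their only term (residual degrees of freedom, 4), with Benjamini-Hochberg adjustment over all tested genes at 0.05. The standard error is the size of the log2 fold change over the square root of F, and 95% intervals use the fit's total degrees of freedom. Within-group spread and profile distance used log2 CPM with a prior count of 2. Lengths are from GENCODE M21. The script was checked on simulated counts. The 10 genes and the lists were chosen with earlier results of these data known. Named list genes are those called, or else the 2 most abundant and the 2 of smallest p. P2rx5, Nt5e, Entpd3, Nlrp3, Casp1 and the cell type markers named fall outside this rule and were chosen after their values were seen. Alternatives were DESeq2 1.42.0, voom of limma 3.58.1, RLE, upper quartile and total scaling, no filter, a filter of more than 1 CPM in 3 libraries, non-robust estimates, the replicate number as a block, and leaving out each library. For called list genes they were added after the data were seen.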

Additional observations from a re-analysis of the deposited data

How the results depend on the processing

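Across 15 alternatives the number of the 10 genes called was 0 except with DESeq2, which called 2 (Adora2a and P2ry6). Estimates kept their sign in all alternatives for the 10 genes other than P2ry2, which was -0.016 with library totals and ranged from -0.20 to 0.17 when 1 library was left out. The number of genes called over the whole table, 71 (29 higher and 42 lower), was 490 with DESeq2, 39 with limma-voom and 36 with non-robust estimates, and with 1 library left out between 13 (PAC-CM replicate 1) and 98 (kinsenoside replicate 1); the cause was not tested. Library totals gave 88, of which 25 were higher and 63 lower. With the replicate block 42 genes were called and none of the 10. The labels do not say what a replicate number shares, and deviations of same-numbered libraries from their group means correlated across genes at 0.01, -0.10 and 0.13, so the numbers were not taken to pair the libraries. With 3 libraries per group, changes as small as most of these estimates cannot be told from the spread. Among the 10 genes, counts were lowest for Ada, at 37 to 70 per library.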
